A study of Mus musculus with 4 samples.

Results

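The genes described here are the Wnt ligands, their Frizzled receptors and 7 genes that carry the signal onward, 36 protein-coding genes of 21887 on chromosomes 1 to 19, X and Y. They were chosen by symbol in the RefSeq annotation of GRCm38, whose primary chromosomes carry the mm10 coordinates: 19 Wnt genes, 10 Fzd genes, the co-receptors Lrp5 and Lrp6, the beta-catenin gene Ctnnb1, Axin1, Axin2, and the TCF/LEF factors Tcf7l2 and Lef1. At these genes, peaks of a STAT3 chromatin immunoprecipitation (ChIP-seq) were counted in a sham and an SCI list. All mice were C57BL/6. In sham mice only a laminectomy was made, at thoracic level 9. In SCI mice the exposed cord was contused there with a force of 60 kdyn, a moderate injury, and both groups were kept for 7 days. Tissue of the injury epicentre was dissociated to a suspension of cells that was not sorted for a cell type, and 3 mice were pooled per library. Each condition had 1 STAT3 library and 1 input library, so no value below has a replicate check and no test between sham and SCI was run. Peak lists hold no expression values, so the makeup of the suspension could not be checked against cell markers. A site present in fewer cells and a site bound more weakly in each cell cannot be told apart.

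Wnt proteins are secreted, lipid-modified ligands that bind Frizzled receptors together with Lrp5 or Lrp6. In the canonical branch this stops the destruction complex, built on the Axin scaffolds, from marking beta-catenin for degradation, and beta-catenin then acts with TCF/LEF factors on target genes. In the spinal cord Wnt signals pattern the dorsal cord, guide growing axons and act on oligodendrocyte precursors. STAT3 is a transcription factor that JAK kinases switch on below receptors for interleukin-6 and related cytokines.

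As a whole, the Wnt genes carried STAT3 peaks about as often as other genes of their length. A sham peak centre lay inside or within 5 kb of 26 of the 36 members, where 66.7% of all protein-coding genes had one. The 200 genes nearest in length to each member gave an expected number of 25.6. An SCI peak lay at 20 members, against 43.9% of all genes and 16.85 expected from length. Peaks of both lists lay at 17 members (37.3% of all genes, 14.3 expected), a sham peak alone at 9 (29.3%, 11.2 expected) and an SCI peak alone at 3 (6.51%, 2.52 expected). No peak of either list lay at 7 members (26.8%, 7.93 expected). The members thus held slightly more SCI positions than genes of like length and nearly the same number of sham positions. In all, 66 sham peaks and 33 SCI peaks lay at members, where the same length-matched genes gave 72.6 and 29.1. The density of peaks in the 500 kb on each side of the members gave 71.2 and 30.5.

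**Figure D1:**
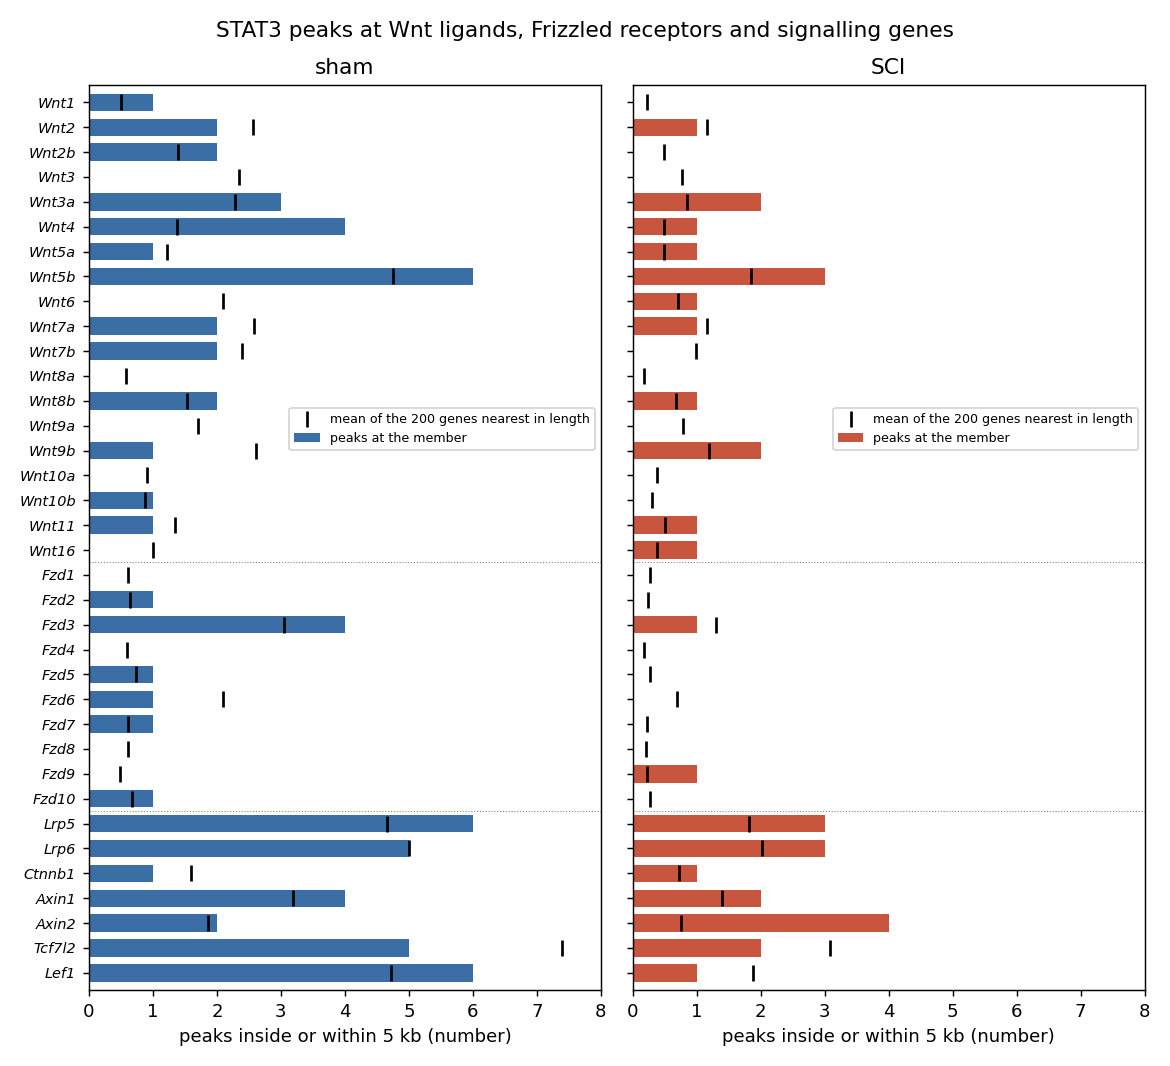
Number of sham (left, blue) and SCI (right, red) STAT3 peaks with the centre inside or within 5 kb of each member; the black mark is the mean of the 200 protein-coding genes nearest in length. Most bars lie near their mark. Axin2 has 4 SCI peaks beside a mean of 0.75, and Wnt4 has 4 sham peaks beside a mean of 1.37. Axin2 and Wnt4 were picked out among all members and both lists after the values were seen.

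Among members whose start windows were at hand, a few peaks lay at a transcription start. RefSeq (GRCm38.p6) start windows, each 250 bases before to 50 after a start, were at hand for 25 of the members, 33 windows in all. Sham peaks overlapped 2 of them (6.06%), at Wnt5b and Wnt7a, where 1.69% of all 32851 windows in the table had a sham peak. An SCI peak overlapped 1 (3.03%), at Axin2, where 0.682% of all windows had one. Both shares were above those of all windows but rest on 2 and 1 windows, and no test was run. The 250 bases before these starts at Wnt5b, Wnt7a and Axin2 are shown because theirs were the windows at hand that a peak reached. The bases under the peak are in capitals. Starts of the members without a window were not checked. The last sequence is the region before another Wnt5b start and carries, in capitals, the only match among the 33 windows to the palindrome TTCNNNGAA, the consensus that STAT dimers recognise. That palindrome reads the same on both strands, no other motif was searched, and 8.30% of all 32851 windows held it. All are written 5′ to 3′ on the strand of the gene.

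Axin2, chr11:108920099-108920348, plus strand, SCI peak: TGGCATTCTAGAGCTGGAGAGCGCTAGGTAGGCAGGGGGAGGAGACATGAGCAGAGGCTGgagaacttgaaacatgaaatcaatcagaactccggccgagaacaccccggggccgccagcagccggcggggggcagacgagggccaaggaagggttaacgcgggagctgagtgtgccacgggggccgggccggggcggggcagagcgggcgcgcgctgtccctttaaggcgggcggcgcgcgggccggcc
Wnt7a, chr6:91411354-91411603, minus strand, sham peak: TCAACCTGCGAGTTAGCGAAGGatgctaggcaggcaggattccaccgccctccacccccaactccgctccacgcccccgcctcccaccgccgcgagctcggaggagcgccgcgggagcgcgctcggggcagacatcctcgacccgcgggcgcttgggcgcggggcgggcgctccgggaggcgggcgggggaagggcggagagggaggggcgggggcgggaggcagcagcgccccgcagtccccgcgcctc
Wnt5b, chr6:119449387-119449636, minus strand, sham peak: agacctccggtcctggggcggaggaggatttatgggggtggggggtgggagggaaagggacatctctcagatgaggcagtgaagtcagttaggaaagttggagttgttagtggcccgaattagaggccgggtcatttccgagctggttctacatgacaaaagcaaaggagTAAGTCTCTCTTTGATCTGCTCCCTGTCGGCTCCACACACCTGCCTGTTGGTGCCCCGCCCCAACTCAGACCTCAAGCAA
Wnt5b, chr6:119467212-119467461, minus strand, palindrome in capitals: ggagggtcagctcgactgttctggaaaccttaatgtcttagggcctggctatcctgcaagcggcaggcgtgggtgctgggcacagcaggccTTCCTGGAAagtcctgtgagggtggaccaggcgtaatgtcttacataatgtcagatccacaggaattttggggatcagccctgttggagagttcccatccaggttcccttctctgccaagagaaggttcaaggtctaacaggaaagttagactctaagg

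The SCI peak at the Axin2 start covered 60 of these bases and had a score of 5, the lowest in its list. The score is how the authors rated each peak's strength, and the sources used here do not say whether it has 1 scale in both lists. The sham peak at Wnt7a reached 22 bases with a score of 5.32, and the one at Wnt5b reached 80 bases before the start with a score of 6.75. All 3 peaks therefore lay in the weaker part of their lists, in the top 92.3% (Axin2), 87.5% (Wnt7a) and 65.1% (Wnt5b) by score. The match TTCCTGGAA lay 150 bases before its Wnt5b start, and no peak of either list overlapped that window.

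Among the ligands, sham peaks lay at 13 of 19 and SCI peaks at 11, with 13.9 and 8.72 expected from length. Wnt5b, a ligand mostly tied to beta-catenin-independent signalling, had the most: 6 sham and 3 SCI peaks (gene ID 22419, chromosome 6, 119432531 to 119544824). Its highest sham peak, inside the gene at 119507098 to 119507287, scored 31.4 and was the highest of all 66 sham peaks at members, in the top 2.33% of the sham list. Its next, at 119429731 to 119429920, lay 2706 bp outside the gene and scored 23.3. The 3 SCI peaks at Wnt5b were weaker within their list, the best scoring 8.42 (top 38.2%), and none overlapped a sham peak. Genes as long as Wnt5b held 4.75 sham and 1.85 SCI peaks on average, so its counts lay only somewhat above those of like length.

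Wnt4, a ligand of kidney and reproductive tract development, had 4 sham peaks, 2 inside the gene and 2 within 5 kb of it (gene ID 22417, chromosome 4, 137277635 to 137299501). Only 13 of 200 genes of like length had 4 or more. Wnt4 was picked out for this comparison among all members and both lists after the values were seen. The highest of its sham peaks, 355 bp outside the gene at 137299761 to 137299950, scored 28.4 (top 3.34%). Its 1 SCI peak lay at 137299250 to 137299413 with a score of 10.8 (top 21.5%), 524 bp from that sham peak by their centres. Neighbouring but not overlapping positions of this kind, with centres within 1000 bp, occurred at no other member.

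Wnt11, a ligand of cell movements in development, had 1 peak in each list, and they overlapped by 134 bp just outside the gene on chromosome 7. The sham peak at 98855842 to 98856031 scored 14.4 (top 18.2%) and the SCI peak at 98855812 to 98855975 scored 6.46 (top 65.3%). It was the only overlapping pair at a ligand.

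The ligands of the dorsal midline, Wnt1 and Wnt3a, differ in length, 3.97 and 42.7 kb, and in the peak numbers expected from it. Genes as long as Wnt1 held 0.495 sham and 0.22 SCI peaks on average, and genes as long as Wnt3a 2.285 and 0.85. Wnt1 had a single sham peak, inside the gene at 98790638 to 98790827 on chromosome 15 (score 9.22), and its nearest SCI peak lay 32.0 kb away. Wnt3a had 3 sham peaks inside the gene, none above 8.17, and 2 SCI peaks. The better of these, at 59293200 to 59293363 on chromosome 11, lay 2531 bp before the annotated start and scored 10.1 (top 25.3%).

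Of the other ligands with peaks in both lists, Wnt2 (2 sham, 1 SCI), Wnt7a (2 and 1), Wnt8b (2 and 1) and Wnt5a (1 and 1) had their best sham scores at 18.2, 5.32, 18.9 and 5.32. Their best SCI scores were 7.27, 5, 8.05 and 6.29. Wnt9b had 1 sham and 2 SCI peaks, all inside the gene, with scores of 10.4 in sham and 8.17 and 7.88 in SCI. At these 5 ligands no SCI peak overlapped a sham peak. Of all SCI peaks inside or within 5 kb of a protein-coding gene, only 23.0% did, so few overlaps were to be expected.

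A sham peak alone was found at 4 ligands, Wnt1, Wnt2b, Wnt7b and Wnt10b (29.3% of all genes, 6.535 of 19 expected from length). At Wnt10b, which acts in fat and bone development, it scored 27.7 (top 3.59%), on chromosome 15 from 98767469 to 98767658. It lay 3149 bp outside the gene and also within 5 kb of Arf3. Wnt2b held 2 sham peaks, both also within 5 kb of St7l, with scores of 11.3 and 9.58, and no SCI peak lay within 57.5 kb. Wnt7b, a ligand of vessel growth into the central nervous system, had sham peaks with scores of 7.94 and 5.

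An SCI peak alone was found at 2 ligands, Wnt6 and Wnt16 (6.51% of all genes, 1.335 of 19 expected from length). The Wnt16 peak, at 22301637 to 22301720 on chromosome 6, scored 17.5 and ranked 2053 in its list (top 5.66%), the highest of the 33 SCI peaks at members. It was narrower than the rest, 84 bp against 164 bp, and lay 3157 bp outside Wnt16 and within 5 kb of Fam3c. The Wnt6 peak lay inside the gene on chromosome 1, from 74772679 to 74772842, and scored 8.24, and its nearest sham peak was 46.2 kb from it.

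Among the Frizzled receptors, peaks were about as frequent as at genes of like length. A sham peak lay at 6 of 10 (66.7% of all genes, 5.23 expected from length) and an SCI peak at 2 (43.9% of all genes, 2.94 expected). Most of these receptor genes are short, all but Fzd3 and Fzd6 being at most 7.19 kb long. Only Fzd3, a receptor known for axon guidance and the longest of them at 70.0 kb, had both. Its 4 sham peaks, all inside the gene on chromosome 14, scored from 6.22 to 12.3, and its 1 SCI peak, at 65238005 to 65238168, scored 7.49. The receptors with a sham peak alone were 5, Fzd2, Fzd5, Fzd6, Fzd7 and Fzd10 (29.3% of all genes, 3.135 expected from length). They had 1 peak each with a score between 5.14 and 6.30, all in the weaker portion of the sham list. Apart from that at Fzd5, these peaks lay outside the gene. Fzd9, a receptor gene near Baz1b, was the 1 receptor with an SCI peak alone (6.51% of all genes, 0.85 expected from length). That peak lay 978 bp outside the gene with a score of 6.97.

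**Figure D2:**
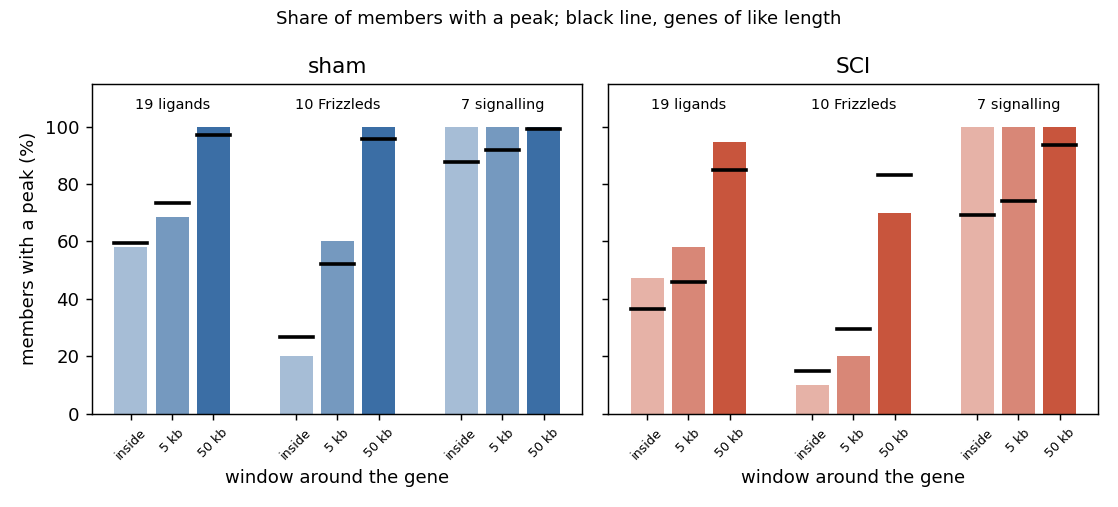
Percent of 19 ligands, 10 Frizzled receptors and 7 signalling genes with a sham (left) or SCI (right) peak centre inside the gene, within 5 kb or within 50 kb; black lines give the percent expected from genes of like length. In SCI 1, 2 and 7 of the 10 receptors have a peak in the 3 windows, slightly below the 1.495, 2.94 and 8.33 expected. Each window contains the smaller ones, so these are not separate results. In sham the receptors lie slightly above the line at 5 and 50 kb. The 7 signalling genes reach 100.0% in every window.

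All 7 signalling genes had peaks of both lists inside the gene, as did 28.1% of all genes. Genes of like length gave 4.495 of 7 with both, 6.15 with a sham peak inside and 4.86 with an SCI peak inside, where all genes gave 51.0 and 33.4% for the single lists.

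Axin2, a scaffold of the destruction complex that beta-catenin itself induces as a feedback inhibitor, had more SCI than sham peaks (gene ID 12006, chromosome 11, 108917828 to 108950783). It had 4 SCI peaks, where genes of like length had 0.75 on average and 1 of 200 had as many or more. Its 2 sham peaks were close to the mean of 1.86 for its length. The SCI peaks scored 12.8 at 108928539 to 108928702, 9.07 at 108946630 to 108946793, 7.94 at 108939359 to 108939522 and 5 at the start shown above. The sham peaks scored 15.0 at 108934607 to 108934796 and 13.2 at 108946592 to 108946781. All 6 lay inside the gene, and the second SCI and the second sham peak overlapped by 152 bp. Axin2 was singled out among 36 members and both lists after the values were seen.

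Its relative Axin1, the constitutively expressed scaffold, had the stronger peaks in sham. Its 4 sham peaks, all inside the gene on chromosome 17, scored 28.7, 28.4, 14.28 and 14.02, and the first 2 lay in the top 3.22 and 3.33% of the list. The highest, at 26193292 to 26193481, also lay within 5 kb of Pdia2. Its 2 SCI peaks, at other positions, scored 8.798 and 6.50.

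Co-receptor genes held peaks of both lists. No SCI peak there overlapped a sham peak. Only 23.0% of SCI peaks at protein-coding genes did, so few overlaps were to be expected among the few peaks here. Lrp5 had 6 sham peaks, none scoring above 7.86, and 3 SCI peaks, of which the best, at 3627508 to 3627671 on chromosome 19, scored 10.04 (top 25.4%). Lrp6 had 5 sham peaks, led by 1 on chromosome 6 from 134462834 to 134463023, which scored 20.1 (top 8.69%). Its 3 SCI peaks were led by 1 at 134542474 to 134542637 with a score of 11.9 (top 17.2%). The strongest sham and SCI positions at each co-receptor were different ones.

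Ctnnb1, encoding beta-catenin, had 1 peak in each list, 6.84 kb apart and inside the gene on chromosome 9. The sham peak scored 10.4 (top 33.1%) and the SCI peak 5.80 (top 78.4%).

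At the TCF/LEF genes, both long, no SCI peak overlapped a sham peak. Only 23.0% of SCI peaks at protein-coding genes did, so among so few peaks few or none were to be expected. Lef1 had 6 sham peaks, all between 131180253 and 131220290 on chromosome 3 in the distal part of the gene, with scores from 5.87 to 16.8, where genes of like length had 4.72 sham and 1.88 SCI peaks on average. Its 1 SCI peak lay far from them, at 131119780 to 131119943, 7071 bp after an annotated start, and scored 9.47 (top 29.5%). Tcf7l2 had 5 sham peaks (scores 5.24 to 9.22) and 2 SCI peaks, both at the lowest score of 5. Genes as long as Tcf7l2 had 7.40 and 3.08 on average, so it held fewer than most of like length.

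**Figure D3:**
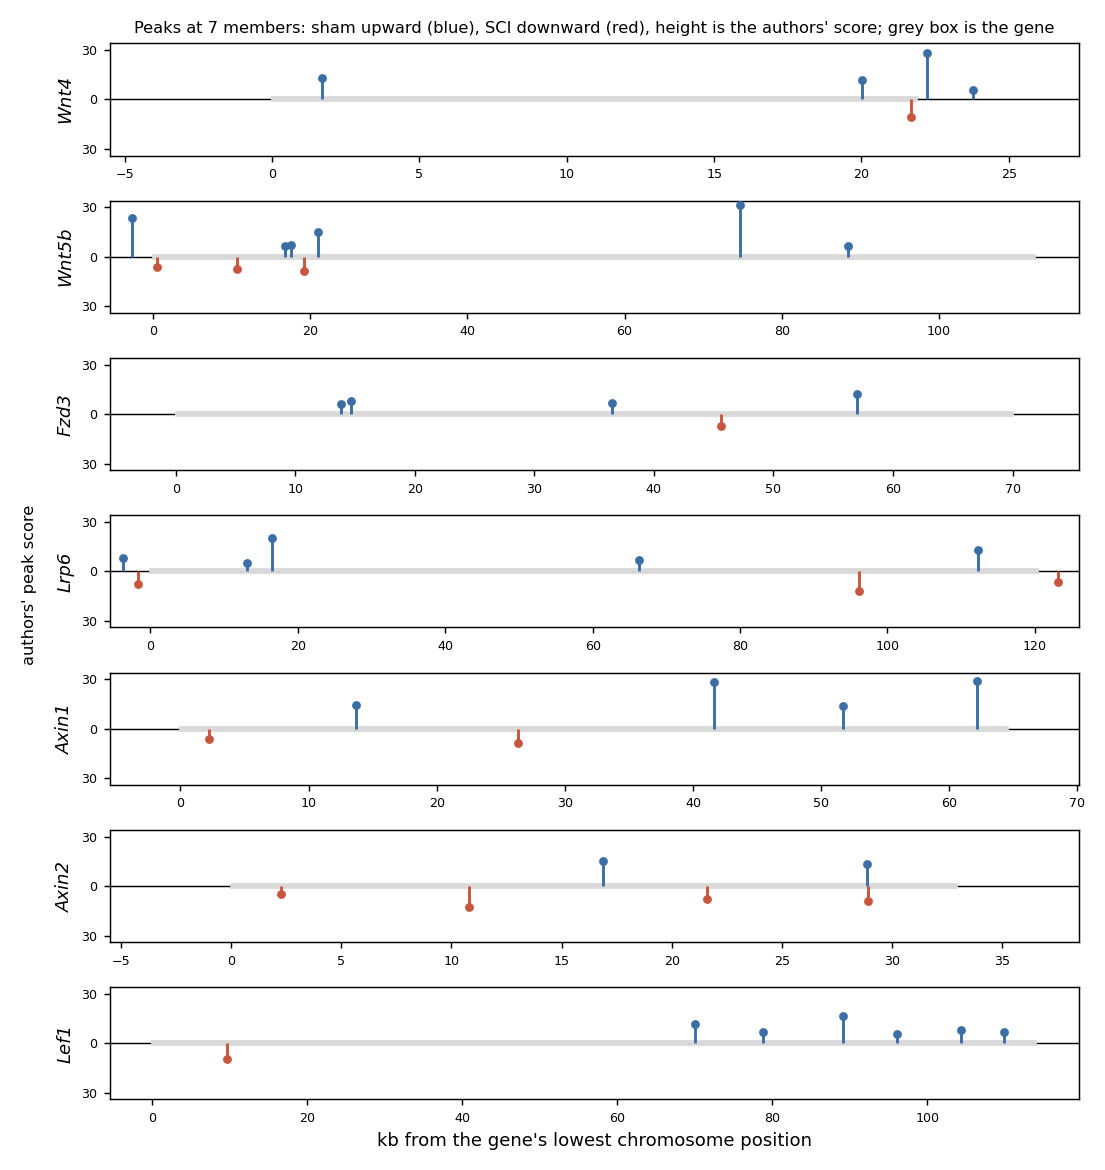
Positions of the peaks at 7 members, in kb from the lowest chromosome position of the gene (grey bar); sham peaks point up and SCI peaks down, and the height is the authors' score, which may differ in scale between the lists. Axin2 has 4 SCI peaks and 1 overlapping pair, and the 6 sham peaks of Lef1 lie in its distal part, away from the SCI peak.

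Few positions at the Wnt genes were common to both lists. Of the 33 SCI peaks at members, 2 overlapped a sham peak, at Axin2 and Wnt11, which is 6.06% (95% exact Clopper-Pearson interval 0.743 to 20.2%, counting error only). Over the whole SCI list 21.6% did, and among SCI peaks inside or within 5 kb of any protein-coding gene 23.0%. From the sham side 2 of 66 were shared, 3.03% (0.369 to 10.5%), against 8.84% of the whole sham list and 9.3% of sham peaks at protein-coding genes. Peaks of 1 gene are neighbours and not independent, and no test was run. Scores of the form 2√k − 1, with k within 0.0001 of a whole number, marked peaks that were rarely shared in these lists (4.82% in SCI). Such peaks made up 30.3% of the SCI peaks at members and 33.1% of the SCI list. Without them 2 of 23 SCI peaks at members were shared, 8.70%, against 29.97% of the list.

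In score, the peaks at members were ordinary for their lists. Their median was 7.90 in sham and 7.55 in SCI, beside list medians of 8.07 and 7.37. In sham 7 of 66 fell in the top 10% of the list, 10.6% (4.37 to 20.6%). In SCI 1 of 33 did, that beside Wnt16, 3.03% (0.0767 to 15.8%).

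**Figure D4:**
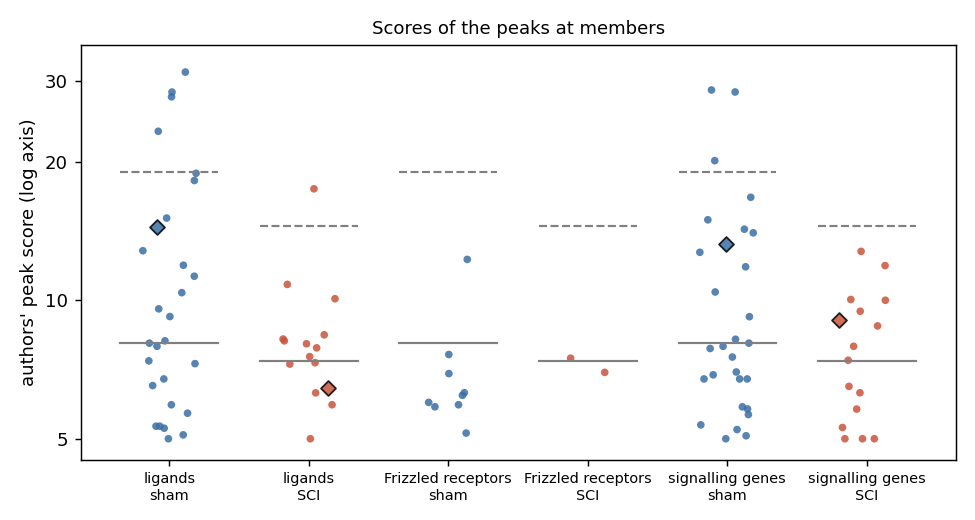
Authors' score (log axis) of each peak at a member, by kind of gene and list; grey solid lines mark the median of the whole list and dashed lines the score that 10% of its peaks exceed, and diamonds are positions shared by both lists. Sham peaks above the dashed line lie at ligands and signalling genes, none at a Frizzled receptor. The receptors have only 9 sham peaks in all, so few or none were to be expected above a line that 10% exceed.

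More SCI than sham peaks were found at 5 of the 36 members, Wnt6, Wnt9b, Wnt16, Fzd9 and Axin2, which is 13.9% where 9.76% of all genes had more SCI peaks. Equal numbers were found at Wnt5a, Wnt11 and Ctnnb1, and more sham peaks at 21 members. Shares over all genes were not taken for these counts, so they cannot be read as particular to the members. The sham list is longer, with 88765 peaks against 36249. When only the 36249 best sham peaks were kept, a sham peak alone remained at 3 of the 9 members, Wnt1, Wnt2b and Wnt10b (16.2% of all genes, 6.56 members expected from length). An SCI peak alone was then found at 7 members, namely Wnt6, Wnt16 and Fzd9 with Wnt3a, Wnt5a, Wnt7a and Lrp5 (15.1% of all genes, 5.98 expected).

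The 7 members with no peak in either list within 5 kb were Wnt3, Wnt8a, Wnt9a, Wnt10a, Fzd1, Fzd4 and Fzd8. Wnt8a lay just beyond that limit, with a sham peak 5.31 kb and an SCI peak 5.64 kb from it. Fzd9 had its nearest sham peak at 5.54 kb, just outside, and Fzd7 had its only sham peak at 4.67 kb, just inside. The nearest sham and SCI peaks were 16.3 and 11.4 kb from Wnt3, 30.4 and 13.6 kb from Wnt9a, and 14.8 and 19.3 kb from Wnt10a. For the receptors they were 29.4 and 129 kb from Fzd1, 16.0 and 17.8 kb from Fzd4, and 11.0 and 23.1 kb from Fzd8.

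Within 50 kb every member had a sham peak, as did 95.6% of all genes, and 32 of 36 had an SCI peak, as did 84.2% of all genes (34.9 and 31.0 expected from length). The members with no SCI peak there were Wnt2b, Fzd1, Fzd6 and Fzd7. Windows of this size overlap between neighbours: the pairs Wnt6 and Wnt10a, Wnt3a and Wnt9a, Wnt3 and Wnt9b, and Wnt1 and Wnt10b overlap or lie within 16.1 kb of each other, and Wnt1 and Wnt10b shared 7 sham peaks. Between 5 and 50 kb from a member, and not within 5 kb of any other member, lay 134 distinct sham and 51 SCI peaks. Of these, 39.6 and 35.3% lay inside or within 5 kb of another protein-coding gene. Over the whole lists 45376 of 88765 sham peaks and 18369 of 36249 SCI peaks lay inside or within 5 kb of a protein-coding gene.

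Among these 51 SCI peaks, 10 were shared with sham, 19.6% (9.82 to 33.1%), near the 21.6% of the whole SCI list. Of the 134 sham peaks 10 were shared, 7.46% (3.64 to 13.3%), beside 8.84% of the sham list. Of the 134 sham peaks, 22 were in the top 10% of their list, 16.4% (10.6 to 23.8%), and of the 51 SCI peaks 8, 15.7% (7.02 to 28.6%). Sharing in this outer zone was thus close to that of the lists as a whole. The highest shared positions, chosen after their values were seen, were 29.8 kb from Fzd9 (sham score 24.2, SCI score 19.6, top 5.36 and 3.89%) and 29.7 kb from Wnt8a beside Nme5 and Brd8dc (sham 9.64, SCI 25.5). A further 1 lay 29.8 kb from Wnt2 (sham 31.3, SCI 7.72), and 1 lay 18.8 kb from Wnt7a (sham 21.8, SCI 9.48). At 12.9 kb (sham) and 13.0 kb (SCI) from Wnt5b, beside Adipor2, peaks of both lists overlapped with scores of 17.7 and 15.4.

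Further genes of the pathway, 68 in all, gave counts slightly below those of genes of like length. A sham peak lay at 51 (66.7% of all genes, 54.4 expected) and an SCI peak at 36 (43.9%, 40.1 expected). Peaks of both lists lay at 34 (37.3%, 36.6 expected). An SCI peak alone was found at 2, Rspo2 and Celsr3 (6.51% of all genes, 3.48 expected). By role, signal transduction genes had a sham peak at 12 of 14 and an SCI peak at 9 (11.1 and 7.51 expected). Receptor turnover genes had 6 of 7 in each (6.29 and 5.16), ligand secretion genes 4 and 3 of 4 (3.65 and 3.03), and planar polarity genes with the alternative receptors 10 and 9 of 12 (10.9 and 9.04). Extracellular modulators had 10 and 5 of 18 (12.4 and 8.16), and nuclear partners 9 and 4 of 13 (10.1 and 7.19). In these last lists SCI positions lay furthest below the number their lengths gave.

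Wif1, a secreted inhibitor that binds Wnt ligands, had the best peak of its list in both conditions at 1 place on chromosome 10. The sham peak at 121062373 to 121062562 scored 30.1 (top 2.70%) and the SCI peak at 121062460 to 121062623 scored 26.4 (top 1.22%). Next among the modulators were Dkk2 in sham (20.4) and Rspo2 in SCI (11.6). Tcf7l1, a TCF factor that mostly represses, led the nuclear partners with a sham peak of 58.0 (top 0.163%) and an SCI peak of 23.2 (top 2.02%) at different positions. These were the best of 12 sham and 7 SCI peaks. Crebbp came next with 25.3 and 9.39, the best of 7 and 2.

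Among the other lists, Porcn, the enzyme that adds the lipid to Wnt proteins, had the best sham peak of the secretion genes, with a score of 48.5 (top 0.412%), ahead of the glypican gene Gpc6 (20.8). In SCI Gpc6 came first (23.4), ahead of Gpc4 (9.58). Best scores were not adjusted for the number of peaks, and Gpc6 had 30 sham and 14 SCI peaks. Porcn had 4 sham peaks and Gpc4 1 SCI peak. The kinase gene Csnk1a1 had a sham peak of 54.3 (top 0.238%) and Btrc, of the ubiquitin ligase for beta-catenin, 26.7 in sham and 16.7 in SCI, after Gsk3b with 19.1 in SCI. The R-spondin receptors Lgr5 (18.8 in sham, 13.6 in SCI) and Lgr4 (17.7 in SCI) and the ligase Znrf3 (17.6 in sham) led receptor turnover. Of the planar polarity list, Ptk7 scored 29.0 in sham and 15.0 in SCI, Vangl2 26.2 in sham and Ror1, a Wnt5a receptor, 21.3 in SCI. Start windows were at hand for 45 of these 68 genes, and peaks overlapped those of Tle3 (sham) and Prickle2 (SCI).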

How the data were processed

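STAT3 ChIP libraries of sham and SCI were analysed as deposited peak lists, matched to samples by title. Inputs were not used here. The authors aligned reads with Bowtie2 to mm10, as the submitters' processing notes state. The sources used here do not give the peak caller, control or threshold. Each deposited list gives a position, a score of 5 or more, and a −log10 value that stands where a q-value belongs in this layout (3.27 to 4.05 in sham, 3.22 to 4.36 in SCI). Read depth is unknown. Each list was called on 1 library.

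A peak on chromosomes 1 to 19, X or Y counted at a gene when its centre lay inside it or within 5 kb, and as shared when at least 1 bp lay under a peak of the other condition. Expected numbers are the shares, or mean peak numbers, of the 200 protein-coding genes outside the list under study that are nearest in length. Ranks count from the highest score, and ties take the best rank. Counting was tested on simulated data. The members, the pathway lists and the rules were chosen with earlier results of these data known. The rule was to name all 36 members and, of each pathway list, the 2 genes with the best peak in each condition. All 36 members and 68 pathway genes matched the RefSeq table. Counts were made in Python 3.11.15 with pandas 2.3.3 and numpy 2.4.6, intervals with scipy 1.17.1, and figures with matplotlib 3.10.9.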

Additional observations from a re-analysis of the deposited data

How the results depend on the processing

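No paired analysis was possible because each condition had 1 STAT3 library, and leaving out a replicate was not possible for the same reason. Counts within 1.5 times of those reported are not repeated here. With peak centres inside the gene only, 4 members had a sham peak alone (9.055 expected from length) and 1 an SCI peak alone (2.19 expected). In that setting 1 SCI peak was shared. With 50 kb, 32 members had an SCI peak (31.0 expected), 32 had both (30.5), 4 a sham peak alone (4.43) and 0 an SCI peak alone (0.54). Within that window 200 distinct sham and 84 SCI peaks lay at members, 12 of the latter shared. Within 5 kb of gene ends only, 11 members had an SCI peak and 9 had both, with 25 sham and 13 SCI peaks. No expected numbers are given for that setting. With peaks below the median score of each list removed, 17 members had a sham peak, 13 an SCI peak and 10 both, with 31 sham and 19 SCI peaks, 1 of them shared. With equal numbers of peaks, 16 members had a sham peak, 3 a sham peak alone (6.56 expected) and 7 an SCI peak alone (5.98 expected), with 27 sham peaks. These settings use fewer or more peaks or wider windows by construction. Under both limits on score, genes of like length moved too, to 19.1 expected in sham and 10.95 in SCI at the median score, and 17.4 in sham with equal numbers. Only 1 of 10 Frizzled receptors then kept a sham peak (3.42 and 2.98 expected). Other rules for a shared position gave 2 (overlap over most of both peaks) and 3 (centres within 1000 bp) of 33. Length deciles in place of nearest lengths gave 25.7 and 17.1 expected members. The comparison with the surrounding 500 kb was added after seeing the data. Without replicates or read counts, a missing peak is a peak not called at an unknown depth.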
